A study of Homo sapiens with 24 samples.

Results

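Collagens, laminins and integrins are the genes for the main structural proteins of the extracellular matrix and for the receptors that hold cells to it. The group described here was chosen by name: protein-coding genes whose symbol is COL, a number, A and a number, or LAMA, LAMB or LAMC and a number, or ITGA or ITGB and a number or 1 of the letters V, X, L, M, D and E. That rule found 81 genes among the 37416 in the deposited tables, of which 44 were collagens, 12 laminins and 25 integrins. The rule uses no measured value. ITGA2B fell outside it because its symbol carries an extra letter.

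The libraries came from 4 human breast cancer lines, BT549, HCC1806, MDAMB231 and MDAMB468, described in the series as triple-negative. Each line carried a lentiviral short hairpin RNA, either non-targeting (shNT) or directed against ADAR1 (shADAR1), the RNA-editing enzyme encoded by ADAR. Every group thus shared infection and puromycin selection, and all 8 groups had 3 libraries, labelled as biological replicates. Separate infections are not named in the labels, so p-values measure the spread between these cultures. The labels do not say how many hairpins target ADAR1.

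As background, collagens assemble as triple helices: fibrillar types form rope-like fibrils, and collagen IV forms the sheet of the basement membrane under epithelia. Laminins are cross-shaped trimers of an alpha, a beta and a gamma chain that organise the same membrane. Integrins are alpha-beta heterodimers that bind these proteins outside the cell and couple them to the cytoskeleton. In breast epithelium, the integrin of ITGA6 and ITGB4 and the collagen COL17A1 anchor basal cells to laminin in hemidesmosomes, whereas fibrillar collagens are mostly products of fibroblasts and of cells with mesenchymal features.

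Levels below are TMM-scaled RPKM, meaning counts divided by the scaled library size and the listed gene length, so that genes can be compared per length. Total counts per library ran from 10370645 to 97218217, and the TMM scaling factors from 0.924 to 1.12. ADAR fell in all 4 lines, with group means of 61.8 RPKM (shNT) and 16.1 (shADAR1) for BT549, 42.4 and 14 for HCC1806, 35.0 and 7.65 for MDAMB231, and 49.8 and 18.5 for MDAMB468. Epithelial markers (8 genes) summed to between 0.339 and 0.439 RPKM in the BT549 shNT libraries, where 6 of the 8 were under 0.1, to 153 to 183 in MDAMB231, and to between 848 and 970 in HCC1806 and MDAMB468. Mesenchymal markers (8 genes) summed to 722 to 996 in BT549 and 1200 to 1450 in MDAMB231, against at most 62.5 in HCC1806 and 5.45 in MDAMB468. The list was not uniform. In shNT means, CDH2 (6.06 and 0.0513 RPKM), SNAI2 (22.3 and 6.69) and TWIST1 (3.2 and 0) were higher in HCC1806 than in MDAMB231. VIM, ZEB1, ZEB2, FN1 and AXL were higher in MDAMB231 than in HCC1806. BT549 and MDAMB231 are called the mesenchymal lines below and HCC1806 and MDAMB468 the basal lines, a usual division, although MDAMB231 kept 4 of the 8 epithelial markers at 0.1 RPKM or more. Of the 4 fibroblast markers, LUM alone had an shNT group mean above 1 RPKM, at 19.4 ± 5.18 (SD, n = 3) in BT549, while PDGFRA, PDGFRB and DCN were at 0.211 or lower there. PDGFRB was at 0.951 ± 0.173 (SD, n = 3) in the MDAMB231 shNT group and 1.12 ± 0.244 in its shADAR1 group. Of the 4 leukocyte markers, 3 had means under 0.1 RPKM in every group, PTPRC, the common leukocyte antigen, among them. The other, the lysosomal glycoprotein gene CD68, had shNT means of 9.29 RPKM for BT549, 22.2 for HCC1806, 41.6 for MDAMB231 and 0.967 for MDAMB468, and the part of such markers in the results was not tested. In bulk RNA such as this, fewer cells with a transcript and less of it per cell cannot be told apart.

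Of the 81 genes, 49 reached a mean of 1 RPKM in at least 1 shNT group, comprising 25 collagens, 8 laminins and 16 integrins. Only 18 did so in all 4 lines, 11 in 3 lines, 9 in 2 and 11 in a single line. The remaining 32 stayed under 1 RPKM in every shNT group. Each line had its own leading genes: among the 49, 15 were highest in BT549, 13 each in HCC1806 and MDAMB231, and 8 in MDAMB468.

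The summed level of each class differed between lines. Collagens summed to 2080 ± 125 RPKM (SD, n = 3) for BT549, 359 ± 94.2 for HCC1806, 299 ± 12.7 for MDAMB231 and 46.2 ± 2.47 for MDAMB468. Laminins had another order, with 1190 ± 461 in HCC1806, 353 ± 32.8 in MDAMB231, 223 ± 18.4 in BT549 and 111 ± 4.81 in MDAMB468. Integrins summed to 587 ± 76.3 in HCC1806, 555 ± 36.1 in MDAMB231, 290 ± 4.13 in BT549 and 143 ± 6.1 in MDAMB468. BT549 was thus the collagen line and HCC1806 the laminin line, and MDAMB468 was lowest in all 3 classes. For HCC1806, replicate 3 was the lowest library for 28 of the 36 members at 1 RPKM or more in both hairpin arms alike. Its shNT library was not shallow, with 53341824 counts, and the part of this replicate in the HCC1806 values was not tested beyond leaving each library out.

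**Figure D1:**
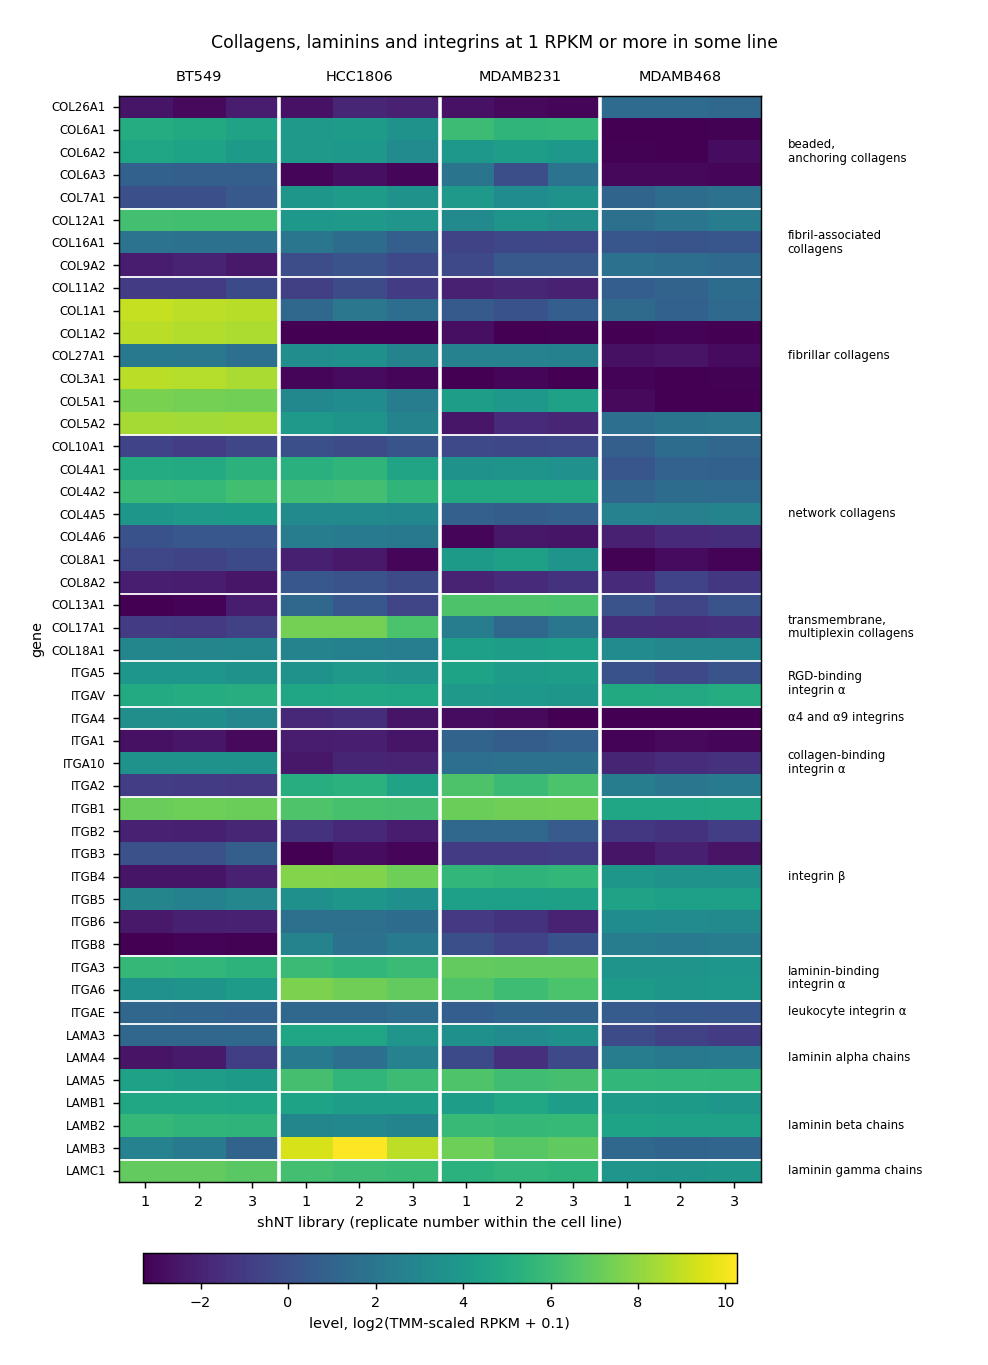
Levels of 48 of the 49 collagen, laminin and integrin genes at 1 RPKM or more in some line, as colour on a log2(TMM-scaled RPKM + 0.1) scale; rows are genes grouped by family and columns the 12 shNT libraries by line. COL1A1, COL1A2, COL3A1 and COL5A2 stand out in BT549, LAMB3 and COL17A1 in HCC1806 and COL13A1 in MDAMB231, while COL6A1 and COL6A2 are near 0 in MDAMB468.

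Fibrillar collagens, the fibril-forming types, separated BT549 from the other 3 lines. COL1A1 (ENSG00000108821, chromosome 17, 50183289 to 50201632), the alpha 1 chain of collagen I, read 532, 478 and 450 RPKM in the BT549 shNT libraries, 2.31, 4.01 and 2.87 in HCC1806, 1.36, 0.979 and 1.58 in MDAMB231, and 2.46, 1.77 and 2.36 in MDAMB468. COL1A2, its partner chain in the collagen I heterotrimer, read 453, 416 and 377 in BT549 and at most 0.0496 in any other shNT library. COL3A1 (ENSG00000168542), which co-assembles in fibrils with collagen I, read 457, 425 and 372 in BT549 and at most 0.0305 elsewhere. BT549 therefore held both collagen I chains in near-equal amounts, with a COL1A1 to COL1A2 ratio of 1.17 ± 0.0223 (SD, n = 3), whereas the other 3 lines had a low level of COL1A1 and next to no COL1A2. COL1A2 and COL3A1 passed the filter on low counts only through BT549, so that their difference between lines follows from the filter.

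The collagen V chains, which nucleate fibrils, were not matched in the same way. COL5A1 read 181, 173 and 166 RPKM in BT549, 7.96, 9.7 and 5.31 in HCC1806, 18.7, 14.8 and 21.9 in MDAMB231, and 0.0271, 0.0037 and 0.00158 in MDAMB468. COL5A2 read 337, 327 and 343 in BT549, 15.9, 13.0 and 6.62 in HCC1806, 0.0774, 0.218 and 0.173 in MDAMB231, and 2.98, 3.64 and 4.03 in MDAMB468. The COL5A1 to COL5A2 ratio was 0.516 in BT549 and 0.683 in HCC1806 but 146 in MDAMB231, and MDAMB468 had the reverse pattern with COL5A2 and almost no COL5A1. The mesenchymal minus basal difference was accordingly 7.85 on the log2 scale for COL5A1 (SE 0.274, edgeR adjusted p = 4.33e-17) but 0.25 for COL5A2 (SE 0.212, edgeR adjusted p = 0.326). COL3A1 and COL5A2 are neighbours on chromosome 2 with 19150 bases between them, and both were highest in BT549, but COL5A2 alone was above 1 RPKM in HCC1806 and MDAMB468. COL27A1 followed no such order, with HCC1806 highest at 6.61 to 11, and COL11A2 reached 1 RPKM only in MDAMB468, at 1.57 to 2.72.

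Fibril-associated collagens, which decorate fibrils, were led by COL12A1. It read 73.1, 70.0 and 69.6 RPKM in BT549, 14.8, 15.6 and 13.6 in HCC1806, 8.94, 13.0 and 10.4 in MDAMB231, and 3.13, 3.96 and 5.2 in MDAMB468, and all neighbours in that order differed. COL16A1 read 3.47, 3.4 and 3.29 in BT549, 3.89, 2.69 and 1.63 in HCC1806, 0.587, 0.677 and 0.648 in MDAMB231, and 1.16, 1.06 and 1.13 in MDAMB468, with BT549 and HCC1806 not separable. COL9A2, a chain of cartilage collagen IX, had the opposite order: 3.32, 2.86 and 2.36 in MDAMB468, 0.711, 1.31 and 1.26 in MDAMB231, 0.826, 0.997 and 0.684 in HCC1806, and 0.107, 0.148 and 0.0897 in BT549. The other 7 members of this family stayed under 1 RPKM.

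Among network collagens, the basement membrane pair COL4A1 and COL4A2 was present in all 4 lines. COL4A1 (ENSG00000187498) read 32.8, 31.1 and 42.7 RPKM in BT549, 38.7, 47.1 and 24.5 in HCC1806, 12.1, 12.8 and 11.7 in MDAMB231, and 1.15, 1.84 and 1.75 in MDAMB468. COL4A2 (ENSG00000134871) read 58.0, 54.2 and 71.2 in BT549, 68.6, 73.5 and 47.1 in HCC1806, 30.1, 30.4 and 30.8 in MDAMB231, and 2.02, 2.7 and 2.57 in MDAMB468. Both chains kept the same order of lines, HCC1806 with BT549, then MDAMB231, then MDAMB468. The COL4A1 to COL4A2 ratio stayed between 0.401 (MDAMB231) and 0.643 (MDAMB468) while the mean level of COL4A2 varied from 2.43 to 63.1.

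These genes lie head to head on chromosome 13, and the listed gene models overlap at their starts, from 110305812 to 110307149, on opposite strands. In RefSeq (GRCh38.p14) their transcripts start 127 bases apart. The 126 bases between the starts, at 80.2% GC, are shown because both genes share them. The COL4A5 and COL4A6 pair on the X chromosome is arranged in the same way, with starts 380 bases apart, and the 121 bases common to both promoter windows, at 44.6% GC, are given for comparison. Capitals mark the letters GGGCGG and ATTGG on either strand.
COL4A1-COL4A2, chr13:110307158-110307283, plus strand: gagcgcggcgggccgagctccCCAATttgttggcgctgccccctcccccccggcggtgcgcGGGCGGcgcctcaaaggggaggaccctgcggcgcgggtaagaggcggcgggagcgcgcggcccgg
COL4A6-COL4A5, chrX:108439588-108439708, plus strand: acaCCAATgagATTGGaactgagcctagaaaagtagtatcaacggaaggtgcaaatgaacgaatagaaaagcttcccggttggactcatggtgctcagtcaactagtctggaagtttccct

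The letters GGGCGG occur on either strand in 45.0% of the 35116 RefSeq promoter windows (250 bases before to 50 after a start) and in 56.6% of the 76 windows that matched 57 of the 81 members. ATTGG occurs in 34.6% of all windows and 25.0% of the members' windows. Unlike the first pair, COL4A5 and COL4A6 did not keep a steady ratio. COL4A5 ranged from 1.62 ± 0.101 RPKM (SD, n = 3) in MDAMB231 to 15.6 ± 1.0 in BT549, with 8.45 ± 0.344 in HCC1806 and 6.27 ± 0.387 in MDAMB468. COL4A6 was at 4.88 ± 0.477 in HCC1806 and 1.1 ± 0.119 in BT549, but at 0.0568 ± 0.0326 in MDAMB231 and 0.197 ± 0.0557 in MDAMB468. BT549 was thus highest for COL4A5 and HCC1806 for COL4A6. The third such pair, COL4A3 and COL4A4, stayed at 0.595 or lower in every line.

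The short-chain network collagens marked single lines. COL8A1 read 16.7, 21.0 and 12.8 RPKM in MDAMB231, 0.628, 0.596 and 0.737 in BT549, 0.131, 0.0884 and 0.0164 in HCC1806, and 0.00403, 0.0308 and 0.0113 in MDAMB468. COL8A2, its partner, was low throughout: 1.21, 1.03 and 0.79 in HCC1806, 0.219, 0.568 and 0.363 in MDAMB468, 0.158, 0.214 and 0.298 in MDAMB231, and 0.118, 0.109 and 0.0797 in BT549. COL10A1 had an shNT mean above 1 RPKM in MDAMB468 alone, where the libraries read 1.62 to 2.65.

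Collagen VI, a beaded microfibril built from 3 different chains, was near 0 in MDAMB468 and incomplete in HCC1806. COL6A1 read 63.5, 47.1 and 51.6 RPKM in MDAMB231, 33.2, 29.7 and 22.6 in BT549, 16.0, 17.3 and 12.3 in HCC1806, and 0, 0 and 0.00662 in MDAMB468. COL6A2, which lies 93047 bases away on chromosome 21, read 26.0, 23.8 and 16.9 in BT549, 15.0, 19.5 and 14.8 in MDAMB231, 15.4, 14.8 and 9.38 in HCC1806, and 0.00703, 0 and 0.0361 in MDAMB468. COL6A3, the third chain, read 1.75, 1.61 and 1.65 in BT549, 3.65, 0.846 and 3.47 in MDAMB231, 0.0134, 0.0456 and 0.0167 in HCC1806, and 0.0212, 0.0243 and 0.0189 in MDAMB468. HCC1806 therefore had both COL6A1 and COL6A2 above 9 RPKM in every shNT library, with 0.0252 ± 0.0177 RPKM (SD, n = 3) of COL6A3. In MDAMB231 the COL6A3 value of replicate 2 was the low one in both arms, with 3.51, 0.726 and 3.68 in shADAR1. That replicate was the lowest in both arms for 17 of the 35 members at 1 RPKM or more in MDAMB231. COL7A1, the anchoring fibril collagen, was above 9 RPKM in every HCC1806 and MDAMB231 shNT library and below 4 in those of the other 2 lines, and COL26A1 exceeded 1 RPKM in MDAMB468 alone.

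Transmembrane collagens gave sharp line markers. COL13A1 (ENSG00000197467, chromosome 10, 69801931 to 69964275) read 89.5, 89.5 and 83.1 RPKM in MDAMB231, 2.34, 1.2 and 0.62 in HCC1806, 1.03, 0.612 and 1.01 in MDAMB468, and 0, 0.0107 and 0.113 in BT549. COL17A1 (ENSG00000065618, chromosome 10, 104031286 to 104086002), the hemidesmosomal collagen, read 171, 168 and 85.1 in HCC1806, 5.27, 2.19 and 3.91 in MDAMB231, 0.422, 0.393 and 0.532 in BT549, and 0.248, 0.235 and 0.264 in MDAMB468. COL18A1, a basement membrane collagen, was in contrast present everywhere: 20.5, 18.7 and 19.8 in MDAMB231, 9.16, 7.8 and 7.57 in MDAMB468, 7.31, 7.02 and 7.49 in BT549, and 6.71, 6.07 and 5.54 in HCC1806. MDAMB231 was thus 63.0-fold above the next line for COL13A1, and HCC1806 37.3-fold above the next for COL17A1. MDAMB468 did not share the COL17A1 level of HCC1806 although both are basal lines.

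The laminin chains LAMA3 and LAMB3, both typical of epithelia, were highest in HCC1806. LAMB3 (ENSG00000196878, chromosome 1, 209614870 to 209652466) read 679, 1220 and 486 RPKM in HCC1806, 152, 106 and 122 in MDAMB231, 6.28, 4.85 and 1.87 in BT549, and 2.33, 2.0 and 2.08 in MDAMB468. LAMA3 (ENSG00000053747) read 25.8, 26.0 and 13.2 in HCC1806, 11.3, 9.3 and 11.3 in MDAMB231, 2.11, 2.11 and 2.19 in BT549, and 0.747, 0.529 and 0.413 in MDAMB468. For both chains HCC1806 came first and MDAMB231 next, with no overlap between them. The LAMA3 to LAMB3 ratio was 0.0288 ± 0.00848 (SD, n = 3) in HCC1806, 0.0847 ± 0.00924 in MDAMB231, 0.261 ± 0.0608 in MDAMB468 and 0.647 ± 0.455 in BT549.

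The letters TGANTCA, which include the form bound by AP-1 factors, stood on either strand in 4 of the 57 members with a RefSeq promoter window: LAMA3, LAMB3, ITGA5 and COL10A1. The share over all 35116 windows was 7.7%, against 5.3% of the members' windows. The matches at LAMB3, LAMA3 and ITGA5, shown because the levels and hairpin changes of these genes are described, are given on the strand of the gene (GRCh38.p14), with the match in capitals and 10 bases on each side. The LAMB3, LAMA3 and ITGA5 windows each belong to a start inside the listed gene model. The matches begin 125 and 69 bases upstream of that start for LAMA3, 67 for LAMB3 and 6 for ITGA5.
LAMB3, chr1:209651425-209651451, minus strand: tcagccactcTGACTCAttcactttgg
LAMA3, chr18:23872885-23872911, plus strand: tggcacaggcTGACTCAtgtgtgaagt
LAMA3, chr18:23872941-23872967, plus strand: cttcctcaccTGAGTCAggcaggcccg
ITGA5, chr12:54419256-54419282, minus strand: ctccccgcgtTGAGTCAttcgcctctg

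The remaining laminins were more evenly spread. LAMA5, the main alpha chain of epithelial basement membranes, read 90.5, 68.3 and 75.7 RPKM in MDAMB231, 75.2, 49.5 and 62.3 in HCC1806, 51.2, 48.1 and 46.9 in MDAMB468, and 21.6, 18.7 and 17.0 in BT549. LAMC1, the common gamma chain, read 129, 125 and 110 in BT549, 72.6, 63.3 and 59.6 in HCC1806, 41.3, 49.3 and 44.2 in MDAMB231, and 13.3, 12.7 and 14.2 in MDAMB468. LAMB2 read 58.1, 52 and 54.6 in MDAMB231, 53.4, 46.7 and 46.0 in BT549, 23.4, 21.9 and 21.6 in MDAMB468, and 7.36, 7.92 and 6.83 in HCC1806. BT549 was thus lowest for LAMA5 and highest for LAMC1, and the ratio of LAMA5 to LAMC1 was 0.158 ± 0.00961 (SD, n = 3) in BT549 and 3.64 ± 0.3 in MDAMB468. LAMB1 varied little, from a mean of 16.1 in MDAMB468 to 27.1 in BT549. LAMA4, an alpha chain typical of vessels and muscle, read 5.12, 4.4 and 4.81 in MDAMB468, 4.63, 3.03 and 6.42 in HCC1806, 0.717, 0.269 and 0.687 in MDAMB231, and 0.0613, 0.0972 and 0.472 in BT549, so the basal lines did not overlap the mesenchymal ones. LAMA1, LAMA2, LAMB4 and LAMC3 stayed at 0.24 RPKM or lower.

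Laminin-binding integrin subunits shared part of the order of these chains. ITGA6 (ENSG00000091409) read 193, 157 and 128 RPKM in HCC1806, 90.9, 64.6 and 85.3 in MDAMB231, 17.0, 14.2 and 14.8 in MDAMB468, and 11.5, 12.7 and 17.7 in BT549. ITGB4 (ENSG00000132470), which pairs only with ITGA6, read 211, 208 and 155 in HCC1806, 50.3, 44.8 and 50.3 in MDAMB231, 14.6, 12.3 and 12.6 in MDAMB468, and 0.0709, 0.0729 and 0.138 in BT549. The ITGA6 to ITGB4 ratio was near even in HCC1806 (0.832 ± 0.0781, SD, n = 3), MDAMB468 (1.17 ± 0.00688) and MDAMB231 (1.65 ± 0.188) but 155 ± 23.9 in BT549. BT549 therefore had ITGA6 without its hemidesmosomal partner. ITGA3, which pairs with ITGB1, read 128, 121 and 123 in MDAMB231, 61.8, 49.9 and 60.2 in HCC1806, 53.3, 49.8 and 43.6 in BT549, and 13.1, 13.0 and 13.8 in MDAMB468.

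**Figure D2:**
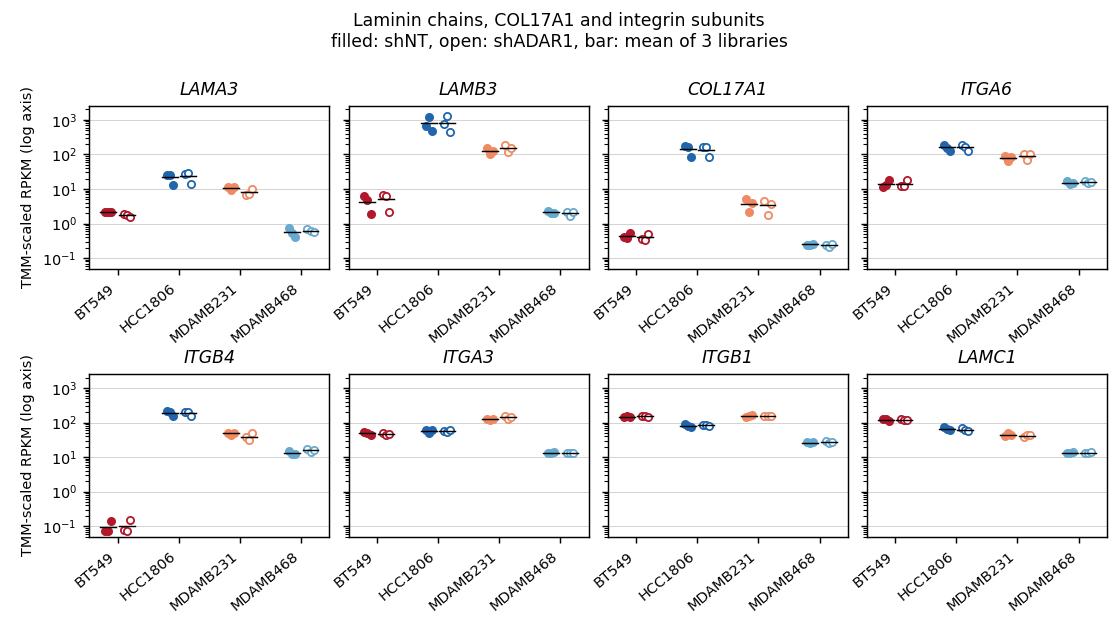
Level of 8 adhesion genes in every library on a log axis of TMM-scaled RPKM, by line; filled points are shNT, open points shADAR1 and bars the mean of 3 libraries. LAMA3, LAMB3, COL17A1, ITGA6 and ITGB4 are highest in HCC1806, ITGB4 lies near 0.1 RPKM in BT549, and the hairpin arms of each line lie close together.

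Collagen-binding alpha subunits divided the lines. ITGA2, the collagen receptor of epithelia and platelets, read 89.3, 60.7 and 84.3 RPKM in MDAMB231, 35.1, 40.5 and 22.5 in HCC1806, 5.05, 3.97 and 4.54 in MDAMB468, and 0.444, 0.44 and 0.376 in BT549. ITGA10 read 12.1, 12 and 12.4 in BT549, 3.01, 3.27 and 3.21 in MDAMB231, 0.168, 0.23 and 0.28 in MDAMB468, and 0.0835, 0.161 and 0.144 in HCC1806. ITGA1 exceeded 1 RPKM in MDAMB231 alone (1.91, 1.52 and 1.84), against 0.116, 0.124 and 0.0676 in HCC1806, 0.0554, 0.0739 and 0.0251 in BT549, and 0.00816, 0.0257 and 0.0124 in MDAMB468. BT549, the line with the most fibrillar collagen RNA, thus had ITGA10 as its only collagen-binding alpha subunit above 1 RPKM, since ITGA11 was at 0.0901 or lower in every line. ITGA2 and ITGA1 are neighbours with 30116 bases between them, and both were highest in MDAMB231.

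Subunits that bind fibronectin and related RGD-containing ligands were common to the lines, with 1 gap. ITGAV read 31.8, 33.3 and 35.0 RPKM in BT549, 29.8, 29.3 and 33.6 in MDAMB468, 25.4, 27.1 and 25.1 in HCC1806, and 15.8, 15.0 and 14.4 in MDAMB231. ITGA5 (ENSG00000161638, chromosome 12, 54395261 to 54419460), the alpha subunit of the main fibronectin receptor, read 23.6, 17.1 and 19.6 in MDAMB231, 12.3, 16.1 and 13.4 in HCC1806, 14, 14 and 12.1 in BT549, and 0.98, 0.689 and 1.03 in MDAMB468. MDAMB468 was thus the line nearly without ITGA5 while it kept ITGAV. ITGA4, a fibronectin and VCAM-1 receptor subunit best known from leukocytes, read 10.3, 10.6 and 7.8 in BT549, 0.2, 0.245 and 0.0733 in HCC1806, 0.035, 0.0253 and 0 in MDAMB231, and 0 in all 3 MDAMB468 libraries, where 3 counts over the group would be 0.00289 RPKM. ITGAE, partner of ITGB7, was near even at 2.16, 2.08 and 1.82 in BT549, 2.26, 2.21 and 2.76 in HCC1806, 1.58, 1.99 and 1.89 in MDAMB231, and 1.43, 1.25 and 1.21 in MDAMB468, and ITGB7 itself stayed at 0.769 or lower.

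The beta subunits split into a shared one and line-restricted ones. ITGB1, the partner of most alpha subunits above, read 147, 157 and 165 RPKM in MDAMB231, 141, 151 and 149 in BT549, 90.3, 78.4 and 76.6 in HCC1806, and 26.5, 24.9 and 26.8 in MDAMB468. ITGB6, an epithelial partner of ITGAV that activates latent TGF-beta, read 9.77, 9.23 and 8.46 in MDAMB468, 3.08, 3.18 and 2.67 in HCC1806, 0.377, 0.298 and 0.143 in MDAMB231, and 0.0921, 0.131 and 0.135 in BT549. ITGB8, another partner of ITGAV with that function, read 5.37, 4.72 and 5.32 in MDAMB468, 6.68, 3.38 and 4.92 in HCC1806, 0.889, 0.564 and 0.99 in MDAMB231, and 0.00234, 0.0102 and 0.00614 in BT549. For ITGB6 and ITGB8 the basal lines did not overlap the mesenchymal ones. ITGB5 was present in all lines (6.98 in BT549 to 20.9 in MDAMB468, group means), ITGB3 reached 1 RPKM only in BT549 (1.17), and ITGB2, the leukocyte beta subunit, only in MDAMB231 (1.4 to 2.33).

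Across these families, most members differed between lines, as most genes did. Of the 75 members that passed the filter on low counts, 70 (93.3%) differed among the 4 shNT groups, against 85.9% of all 21352 genes tested (edgeR's quasi-likelihood test, Benjamini-Hochberg adjusted p under 0.05). Between mesenchymal and basal lines, 26 of the 75 were higher and 30 lower in the mesenchymal lines, beside 29.9% higher and 31.5% lower over all genes. The members' median absolute difference was 1.73 on the log2 scale and that of all genes 0.7. Each class is 2 lines, so these p-values measure the spread between cultures and not between lines of a class. The members that passed the filter had to be expressed somewhere, and genes found in few lines differ by construction.

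By family, fibrillar collagens had 5 members higher and 3 lower in the mesenchymal lines among 11 tested, network collagens 3 and 5 among 9, laminin chains 4 and 5 among 12, and integrin beta subunits 3 and 5 among 8. The shares over all genes were 29.9% higher and 31.5% lower. COL27A1, COL4A1 and COL4A2 were counted as higher although HCC1806, a basal line, had their highest shNT mean and MDAMB468 their lowest. Several of the largest class differences came from a single line of the class. COL1A2 and COL3A1, at means of 415 and 418 RPKM in BT549 shNT, were at most 0.0496 RPKM in the other mesenchymal line, MDAMB231, so their class differences are differences of BT549 from the other lines. The COL3A1 call was lost without MDAMB231 shNT replicate 2 (edgeR adjusted p = 1.0). Others held for both lines of a class: ITGB8 (-6.12, SE 0.29, edgeR adjusted p = 1.02e-14), ITGB6 (-4.92, SE 0.204, edgeR adjusted p = 9.36e-16), ITGA10 (5.12, SE 0.169, edgeR adjusted p = 1.52e-17) and ITGB1 (1.72, SE 0.0544, edgeR adjusted p = 8.17e-18) had no overlap between any mesenchymal and any basal library.

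Pairs of lines were compared within the same fit. Of the 75 members, 50 differed between BT549 and HCC1806 (all genes 63.5%), 53 between BT549 and MDAMB231 (all genes 56.5%), 60 between BT549 and MDAMB468 (all genes 61.0%), 54 between HCC1806 and MDAMB231 (all genes 59.0%), 57 between HCC1806 and MDAMB468 (all genes 62.9%) and 62 between MDAMB231 and MDAMB468 (all genes 61.8%). The median absolute log2 difference of the members was 2.03 between the mesenchymal lines and 1.84 between the basal lines, against 0.77 and 0.9 for all genes. Between lines of different classes it was 1.67 (BT549 and HCC1806), 2.72 (BT549 and MDAMB468), 1.69 (HCC1806 and MDAMB231) and 2.58 (MDAMB231 and MDAMB468). The values within a class thus lay inside the range of those between classes. Of the 147 steps between neighbouring lines in the members' orders of level, 40 did not differ, and 20 of the 49 expressed members differed at every step.

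The order of lines was kept under the ADAR1 hairpin. It was the same in the shADAR1 groups for 43 of the 49 expressed members, and 69 of the 75 tested members had a mesenchymal minus basal difference of the same sign in both arms. LAMA3 was an exception, at 0.46 on the log2 scale in shNT and -0.01 in shADAR1. Its shNT call was kept in 19 of 24 edgeR fits that each left out 1 library, and was lost without HCC1806 shNT replicate 3, MDAMB231 shNT replicate 1 or 3, or MDAMB468 shNT replicate 2 or 3.

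**Figure D3:**
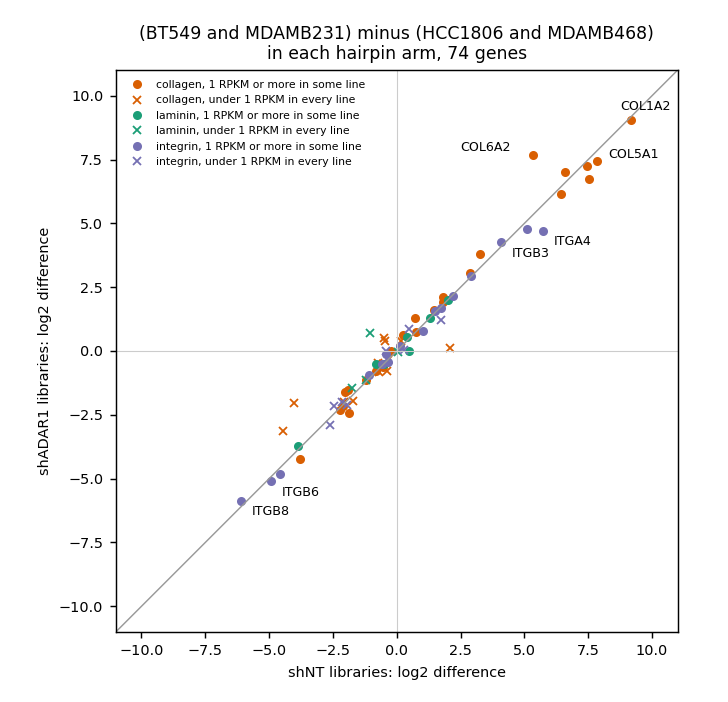
Mean log2 difference between the mesenchymal lines (BT549 and MDAMB231) and the basal lines (HCC1806 and MDAMB468) for 74 of the 75 members tested, in the shNT libraries (x axis) and the shADAR1 libraries (y axis); filled points are members at 1 RPKM or more in some line, and the diagonal marks equal differences. Most filled points lie near the diagonal, from ITGB8 at the lower left to COL1A2 at the upper right.

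Other genes of matrix biology were read from lists of collagen-processing enzymes, matrix glycoproteins, integrin adaptors, other matrix receptors and matrix proteases. The lists were chosen with earlier results of these data known, and each class is 2 lines, so their counts are a description. Of 30 enzymes that modify, cleave or cross-link collagen, 24 were higher and 2 lower in the mesenchymal lines at baseline (29.9% and 31.5% of all genes), with a median log2 difference of 1.59 (all genes -0.04). LOXL2, a cross-linking oxidase, differed by 4.46, P3H1, a prolyl hydroxylase, by 2.66, LOXL1 by 5.33 and COLGALT2 by 5.66. Matrix glycoproteins had 12 of 25 higher and 6 lower, integrin adaptors 15 of 32 and 9, other receptors 8 of 15 and 5, and proteases and their inhibitors 11 of 22 and 5, against the same 29.9% and 31.5% of all genes. Among receptors, DDR1, an epithelial collagen receptor, differed by -3.71 on the log2 scale, and DDR2, a receptor for fibrillar collagens, by 3.73.

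With the ADAR1 hairpin, no collagen, laminin or integrin passed the test in any single line. In each of the 4 lines, 0 of the 75 members passed edgeR's quasi-likelihood test at an adjusted p under 0.05, where the share over all genes was 0.473% for BT549, 0.0468% for HCC1806, 2.01% for MDAMB231 and 0.0375% for MDAMB468. At an unadjusted p under 0.05 there were 4 members in BT549 (all genes 6.42%), 1 in HCC1806 (all genes 4.35%), 8 in MDAMB231 (all genes 11.7%) and 3 in MDAMB468 (all genes 3.76%). DESeq2 called 0 in BT549 (all genes 1.15%), 0 in HCC1806 (all genes 0.187%), 0 in MDAMB468 (all genes 0.164%) and 1 in MDAMB231 (all genes 3.25%), which was COL11A2 at a DESeq2 adjusted p of 0.0428. COL11A2 was low in that line, at 0.137, 0.172 and 0.138 RPKM in shNT, from 10, 52 and 42 counts. The joint test of a difference between the 4 line effects called 0 members (all genes 0.0234%), with 1 at an unadjusted p under 0.05 (all genes 4.44%) and 0 by DESeq2 (all genes 0.497%).

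Sizes were read where the genes were expressed. Taking each member in each line where its shNT mean was 1 RPKM or more gave 134 values, of which 129 were under 0.5 in absolute log2 change and 121 had a 95% interval within 1 log2 unit of 0 on both sides. Their median absolute change was 0.11 and their range -0.90 (ITGA4 in BT549) to 0.59 (COL1A1 in MDAMB231). The median absolute change over all 21352 genes tested was 0.15 for BT549, 0.14 for HCC1806, 0.2 for MDAMB231 and 0.12 for MDAMB468. Those genes had no cut on level within the line, so they are not a like comparison for the 134 values. Without that cut, the 49 members at 1 RPKM in some line had medians of 0.18, 0.14, 0.2 and 0.11 in the same order. ITGB1 changed by less than 0.1 in each line.

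**Figure D4:**
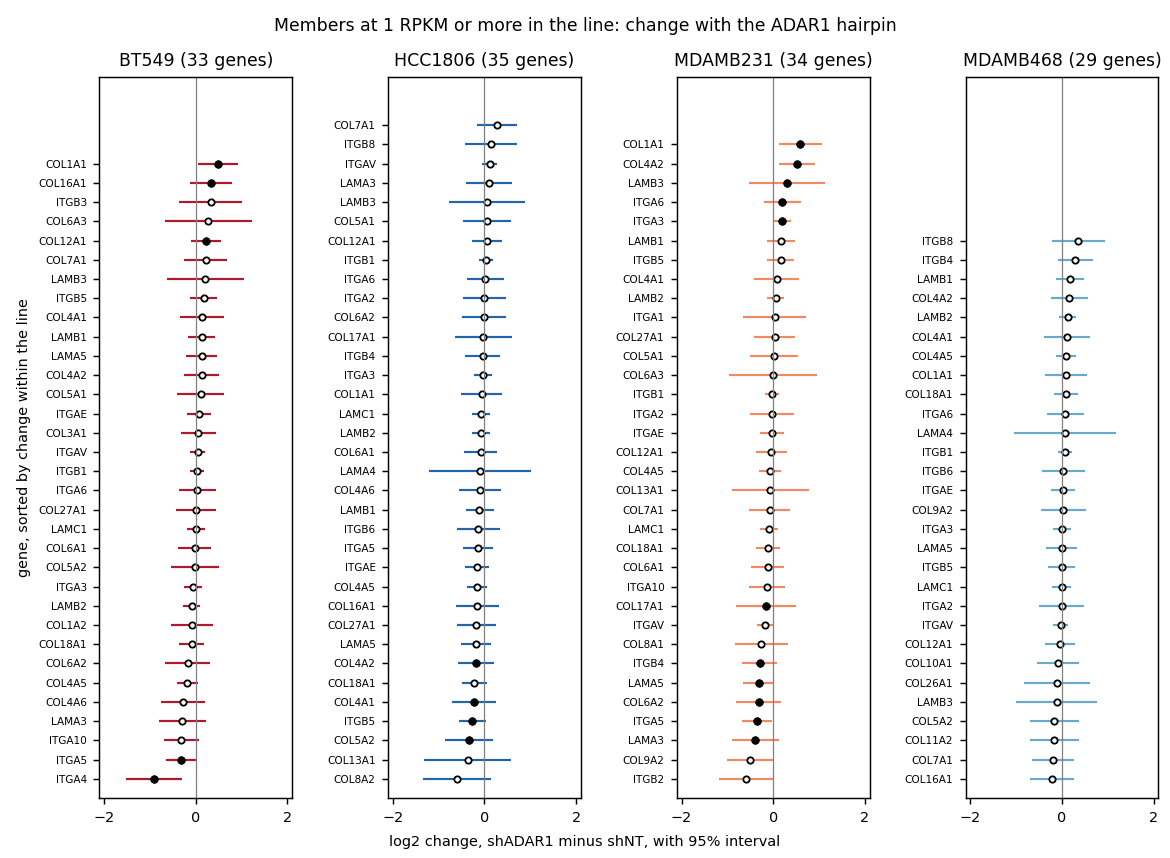
Log2 change (shADAR1 minus shNT) with its 95% interval for members at 1 RPKM or more in the shNT group of the line, all but 1 of them shown, sorted within each line; filled points mark members called with replicate numbers as a block in BT549, HCC1806 and MDAMB231. Most intervals span 0 and lie within 1 log2 unit, with ITGA4 in BT549 lowest.

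ITGA5 was the member that fell on average over the 4 lines, at -0.31 on the log2 scale (SE 0.0813, 95% interval -0.48 to -0.14, edgeR adjusted p = 0.0355), where 1 of 75 members and 2.96% of all genes were called. Its levels in replicates 1, 2 and 3 were 14, 14 and 12.1 RPKM in shNT and 10.6, 10.3 and 11.1 in shADAR1 in BT549. In HCC1806 they were 12.3, 16.1 and 13.4 and then 11, 14.9 and 12. In MDAMB231 they were 23.6, 17.1 and 19.6 and then 16.6, 13.3 and 17.4, and in MDAMB468 0.98, 0.689 and 1.03 and then 0.564, 0.588 and 0.825. Comparing libraries of the same number, shADAR1 was lower in 12 of 12, and the arms did not overlap in BT549 but did in the other 3 lines. The numbers of MDAMB468 were not taken as pairs, so that count is a description only for this line. The effect per line was -0.32 (SE 0.157) for BT549, -0.14 (SE 0.157) for HCC1806, -0.35 (SE 0.158) for MDAMB231 and -0.43 (SE 0.177) for MDAMB468. None passed alone (edgeR adjusted p at least 0.377), and the joint test did not separate them (edgeR adjusted p = 1.0). The average amounted to -19.3%. Its call was kept in 10 of 24 fits that each left out 1 library, with changes from -0.36 to -0.28 and edgeR adjusted p from 0.0115 to 0.106. The call was lost without replicate 1 or 2 of either BT549 arm, replicate 1 or 3 of HCC1806 shADAR1, replicate 2 of HCC1806 shNT, replicate 2 of MDAMB231 shADAR1, replicate 1 or 3 of MDAMB231 shNT, replicate 1 or 2 of MDAMB468 shADAR1, or replicate 1 or 3 of MDAMB468 shNT. With the replicate numbers as a block, those of MDAMB468 included, the change was -0.30 (SE 0.0413, edgeR adjusted p = 1.82e-05). The average change of its partner subunit ITGB1 was 0.02 (95% interval -0.05 to 0.10, edgeR adjusted p = 0.921).

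Replicate numbers paired the arms in BT549, HCC1806 and MDAMB231, and fitting them as a block called more members. In BT549 it called 5 of 75 (all genes 5.14%), with COL1A1, COL12A1 and COL16A1 higher and ITGA4 and ITGA5 lower. In HCC1806 it called 5 (all genes 2.1%), in MDAMB231 14 (all genes 11.4%), on average over the lines 10 (all genes 13.2%) and for a difference between lines 11 (all genes 4.69%). The shares of members were thus near the shares of all genes for BT549 and the average. Values of the block fit are named as such below. Its averages over the lines and its line differences also use the MDAMB468 numbers, which were not taken as pairs. In the edgeR fit of all 24 libraries without the block none of these calls passed the threshold, ITGA5 on average excepted.

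In BT549 the members with the smallest block p were COL1A1 and ITGA4, both highest in this line. COL1A1 rose with the block, from 532, 478 and 450 RPKM in shNT to 707, 656 and 691 in shADAR1, so that the arms did not overlap. Its change was 0.49 (SE 0.212, 95% interval 0.05 to 0.93, edgeR adjusted p = 0.666) without the block and 0.50 (SE 0.063, edgeR adjusted p = 2.84e-05) with it. ITGA4 fell with the block, from 10.3, 10.6 and 7.8 to 4.96, 5.48 and 4.92, again with separate arms, and its change was -0.90 (SE 0.292, 95% interval -1.51 to -0.29, edgeR adjusted p = 0.323), or -0.89 (SE 0.122, edgeR adjusted p = 0.000105) in the block fit. In a fit of the 6 BT549 libraries alone, edgeR adjusted p was 0.0364 for COL1A1 and 0.00403 for ITGA4. COL1A2, the partner chain of COL1A1, changed by -0.08 (95% interval -0.54 to 0.38, edgeR adjusted p = 1.0), and by -0.08 in the block fit (edgeR adjusted p = 0.726). COL12A1 went from 73.1, 70.0 and 69.6 to 85.3, 82.8 and 80.6, and COL16A1 from 3.47, 3.4 and 3.29 to 4.67, 4.13 and 4.04.

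In HCC1806 the block called 1 member higher and 4 lower, each with overlapping arms. COL4A1 went from 38.7, 47.1 and 24.5 RPKM in shNT to 32.9, 41.6 and 19.6 in shADAR1, and COL4A2 from 68.6, 73.5 and 47.1 to 60.0, 68.3 and 37.8, with block changes of -0.24 (SE 0.0635, edgeR adjusted p = 0.0489) and -0.21 (SE 0.0523, edgeR adjusted p = 0.0406). COL5A2 went from 15.9, 13.0 and 6.62 to 11.6, 10.9 and 5.62 (block change -0.32, SE 0.0674, edgeR adjusted p = 0.0136). ITGB5, the vitronectin receptor beta subunit, went from 11.3, 14.6 and 11.1 to 9.5, 13.2 and 8.16 (block change -0.28, SE 0.0714, edgeR adjusted p = 0.0386). In all 4 the replicates of an arm differed by more than the arms did. The member called higher, COL6A3, was at 0.0456 or lower in shNT and at 0.104 or lower in shADAR1, beside a mean of 15.2 for COL6A1 in shNT.

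MDAMB231 had the most members called with the block, 7 higher and 7 lower. COL4A2 went from 30.1, 30.4 and 30.8 RPKM in shNT to 43.2, 40.5 and 46.4 in shADAR1, with arms apart, and its change was 0.51 (SE 0.186, edgeR adjusted p = 0.219), or 0.51 (SE 0.053, edgeR adjusted p = 8.74e-07) in the block fit. COL4A1, which shares its promoter interval shown above, went from 12.1, 12.8 and 11.7 to 10.9, 13.3 and 14.4 and was not called. The COL4A1 to COL4A2 ratio, which does not depend on scaling, was 0.401 ± 0.0194 (SD, n = 3) in shNT, range 0.382 to 0.42, and 0.297 ± 0.0389 in shADAR1, range 0.253 to 0.327, without overlap. Since the listed gene models overlap and counting by strand is not stated, reads at their starts could be shared between them.

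Laminin chains and their receptor subunits moved in both directions in MDAMB231. LAMB3 went from 152, 106 and 122 RPKM to 192, 121 and 153 (block change 0.28, SE 0.0602, edgeR adjusted p = 0.00276). LAMA3 went from 11.3, 9.3 and 11.3 to 6.84, 7.21 and 10.3 (block change -0.40, SE 0.0828, edgeR adjusted p = 0.00241). The LAMA3 to LAMB3 ratio went from 0.0847 ± 0.00924 to 0.0541 ± 0.0165 (SD, n = 3), with ranges of 0.0744 to 0.0922 and 0.0356 to 0.0672 that did not overlap. Of the receptor subunits, ITGA6 went from 90.9, 64.6 and 85.3 to 104, 69.1 and 104 (block change 0.19, SE 0.0491, edgeR adjusted p = 0.013) and ITGB4 from 50.3, 44.8 and 50.3 to 37.8, 30.9 and 49.2 (block change -0.33, SE 0.0667, edgeR adjusted p = 0.00202). The ITGA6 to ITGB4 ratio went from 1.65 ± 0.188 to 2.37 ± 0.337, with ranges of 1.44 to 1.81 and 2.11 to 2.75 that did not overlap. The arms of each single gene overlapped, and none of these genes was called without the block. Both ratios join a member called higher with 1 called lower in the same libraries, so they add nothing to those calls. MDAMB468 differed: ITGB4 went from 14.6, 12.3 and 12.6 in shNT to 17.4, 14.4 and 16.5 in shADAR1. ITGA6 there went from 17.0, 14.2 and 14.8 to 17.4, 15.1 and 16.0.

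Also called with the block in MDAMB231 were ITGB8, COL1A1, COL11A2 and ITGA3, which were higher, and ITGA5, LAMA5, COL6A2 and COL17A1, which were lower. COL11A2 was at 0.172 RPKM or lower in the shNT libraries of this line and at 0.344 or lower in shADAR1. ITGB8 went from 0.889, 0.564 and 0.99 RPKM to 1.4, 0.829 and 1.83, by a block change of 0.71 (SE 0.0941, edgeR adjusted p = 1.81e-05). COL1A1 went from 1.36, 0.979 and 1.58 to 2.29, 1.31 and 2.31, by a block change of 0.55 (SE 0.0783, edgeR adjusted p = 4.31e-05). The block change of COL1A1 was thus 0.55 in MDAMB231 and 0.50 in BT549, lines whose shNT level differed 372-fold. The other lines did not share it: without the block COL1A1 changed by -4.07% in HCC1806 and 5.7% in MDAMB468. LAMA5, the laminin alpha chain most abundant in this line, went from 90.5, 68.3 and 75.7 to 60.3, 49.8 and 78.2, with replicate 3 going the other way.

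**Figure D5:**
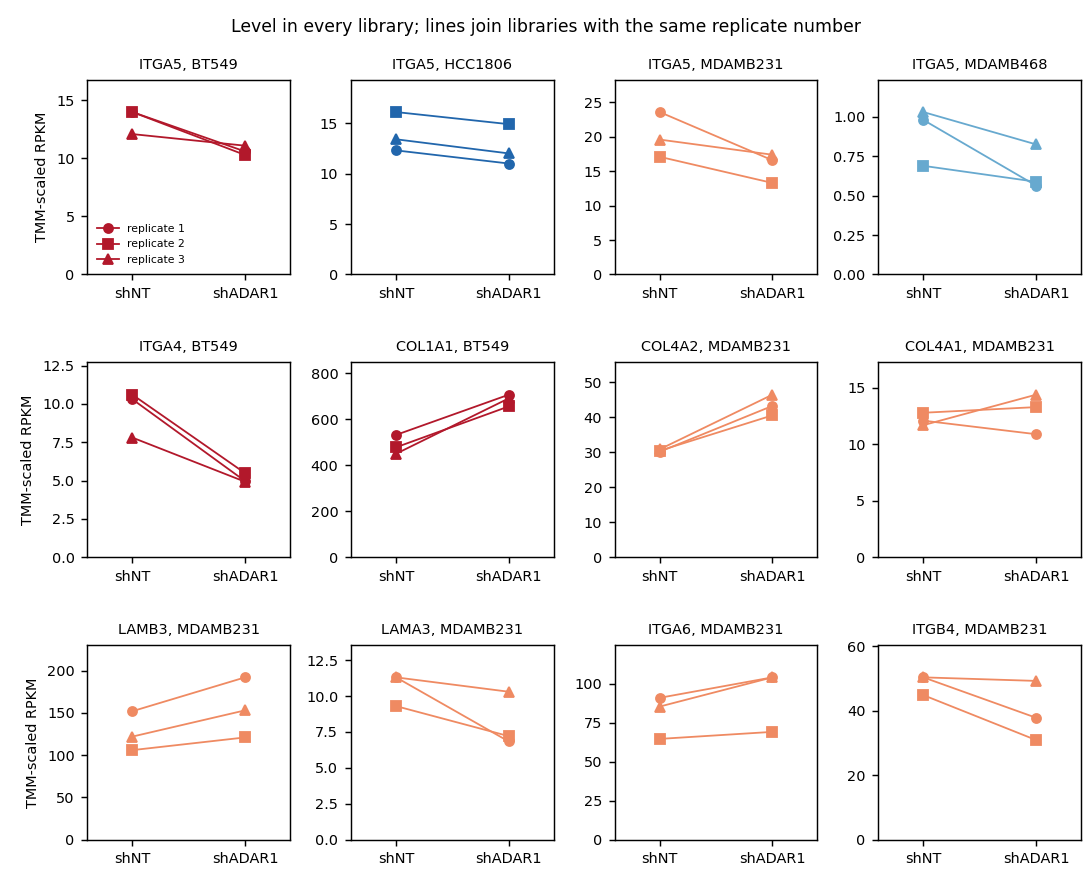
TMM-scaled RPKM of 9 members in 12 panels, each with every library of a line, shNT on the left and shADAR1 on the right of each panel, with lines joining libraries of the same replicate number and axes that start at 0. ITGA5 is lower in shADAR1 in 12 of 12 joined libraries, and in MDAMB231 COL4A2 is higher without a matching shift of COL4A1. The MDAMB468 numbers were not taken as pairs.

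On average over the lines the block fit also called COL1A1 (0.27, SE 0.0352, edgeR adjusted p = 1.14e-05) and COL4A2 (0.15, SE 0.0271, edgeR adjusted p = 0.00063) as higher, as it did ITGA6 (0.08), LAMB3 (0.10) and LAMB1 (0.09). COL4A2 was higher in shADAR1 in all 3 same-numbered libraries of BT549, MDAMB231 and MDAMB468, but lower in all 3 of HCC1806. COL1A1 was higher in 9 of 12, but in only 1 of 3 in HCC1806. The MDAMB468 numbers were again not taken as pairs. ITGB4 was lower in all 3 of HCC1806 and of MDAMB231 and higher in all 3 of BT549 and of MDAMB468. COL4A6, at an shNT mean of 4.88 ± 0.477 RPKM in HCC1806 (SD, n = 3) and 1.1 ± 0.119 in BT549, was called lower (-0.40, SE 0.111, edgeR adjusted p = 0.017). Without the block its largest fall, -52.4%, was that of MDAMB231, where it had little RNA. The counts there were 2, 34 and 29 in shNT and 3, 7 and 24 in shADAR1. Where COL4A6 was expressed the change was smaller, at -6.7% for HCC1806 and -17.6% for BT549. COL6A2 was also called lower (-1.43, SE 0.295, edgeR adjusted p = 0.00219), with a block change of -5.22 in MDAMB468, where the shNT group held 12 counts of it. DESeq2, which had no block, called both as well (adjusted p = 0.038 and 0.00621). COL14A1 and LAMA2 were called higher with little RNA behind them: COL14A1 was at 0.297 RPKM or lower and LAMA2 at 0.226 or lower in every shNT group.

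The same lists of matrix genes, chosen with earlier results of these data known, were read for the hairpin. ANTXR1, a receptor for collagen VI and collagen I fragments, fell in BT549 (23.7 ± 1.78 RPKM in shNT and 10.6 ± 0.187 in shADAR1, SD, n = 3), MDAMB231 (15.2 ± 0.916 and 5.03 ± 0.609) and MDAMB468 (9.25 ± 0.233 and 5.1 ± 0.693). It was at 2.91 ± 0.324 and 2.23 ± 0.0901 in HCC1806 (edgeR adjusted p = 0.427), and its average change was -1.0 (SE 0.0519, edgeR adjusted p = 2.28e-11). The dystroglycan gene DAG1, a laminin receptor (-0.27, edgeR adjusted p = 0.00293), and the proteoglycan gene SDC3 (-0.28, edgeR adjusted p = 0.029) also fell on average, so that 3 of 15 other receptors were called (all genes 2.96%). LOXL2, the collagen cross-linking oxidase, was the only 1 of 30 collagen enzymes called on average (-0.59, SE 0.0792, edgeR adjusted p = 4.74e-05), and in MDAMB231 it fell from 54.8 ± 3.06 to 26.9 ± 3.43 RPKM while PLOD3, a lysyl hydroxylase, rose from 22.8 ± 0.791 to 30.7 ± 4.12. Of 22 proteases and inhibitors, ADAM9 fell on average (-0.37, edgeR adjusted p = 1.31e-05) and MMP13 was called higher at 0.617 RPKM or less in every group. No integrin adaptor among 32 and no matrix glycoprotein among 25 was called by edgeR on average, with 5 and 3 at an unadjusted p under 0.05 (all genes 12.8%). DESeq2 called 2 of the adaptors, ACTN1 and PARVA, and no glycoprotein (all genes 4.45%). With the replicate block edgeR called 6 of the collagen enzymes, 5 glycoproteins, 11 adaptors, 4 other receptors and 8 proteases or inhibitors on average (all genes 13.2%).

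Members that did not reach 1 RPKM in any line complete the account. Of these 32, COL9A3 (0.865), ITGB7 (0.769), ITGA7 (0.6), COL4A3 (0.595) and COL4A4 (0.58) were the closest to that level, beside COL8A2 at 1.01 and ITGB3 at 1.17 just above it, as means of the highest shNT group. The cartilage collagen COL2A1 was at 0.0621 or lower, and the leukocyte alpha subunits ITGAL, ITGAM, ITGAX and ITGAD were at 0.372 or lower. The 6 members that failed the filter on low counts were COL6A5, COL9A1, COL19A1, COL22A1, COL25A1 and ITGA8, which had between 4 and 63 counts each over all 24 libraries.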

How the data were processed

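RNA-seq after ribosomal RNA depletion gave 24 libraries in 8 groups. The authors' deposited tables list, per gene, whole read counts, CPM and RPKM. Per the submitters' processing notes, bcl2fastq, STAR, Subread, featureCounts and edgeR were used. Recomputed from the deposited counts, totals and listed lengths, CPM and RPKM equalled the authors' deposited columns, so they are unscaled by TMM. Build, annotation and strand setting are not given in the sources used here. Of 34265 genes also in GENCODE 29 (GRCh38), 31354 had the same start and end. Gene types came from GENCODE 29, and symbols from a separate list of gene names joined by Ensembl id (33972 of 37416 genes).

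Counts were fitted with edgeR 4.0.16 (quasi-likelihood F test, TMM, filterByExpr, 21352 genes, Benjamini-Hochberg, adjusted p under 0.05) in R 4.3.3, in 1 model of 8 groups, and with DESeq2 1.42.0 as an alternative. Levels are TMM-scaled RPKM computed from the counts. Neighbouring lines in an order of level were called different by the pairwise test in that fit. The alternatives were other scaling, no filter, 6 libraries of a line, replicate block and leaving out each library. On data simulated for the BT549 comparison over 21352 genes, the test recovered 84% of 100 genes changed 2-fold and 35% of 100 changed 1.5-fold, with 6 false calls. The changed genes were drawn from those with a mean above 100 counts per library, and no pairing was simulated. Recovery of genes with lower counts was not tested.

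Same-numbered shADAR1 and shNT libraries of a line deviated together from their group means, with correlations of 0.139 to 0.25 in BT549, 0.242 to 0.443 in HCC1806 and 0.149 to 0.348 in MDAMB231, all over 0.1, so their numbers were taken as pairs. In MDAMB468 they ran from 0.0651 to 0.166, and its numbers were not. Every pair of replicates differed by more than counting noise (lowest chi-square over its degrees of freedom 11.8).

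Members and gene lists were chosen with earlier results of these data known. Values in every library are given for members past the threshold, up to 3 per comparison called only with the block, the 2 highest and the 2 with the largest class difference per family among those at 1 RPKM, and subunits of named assemblies. Others named with the block were added after their values were seen. Likeness of patterns across lines is not given, since the libraries fall into separate clusters by line. Results for 1 member are not reported here; it stays in the counts.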

Additional observations from a re-analysis of the deposited data

Results flagged for a closer look

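With the replicate block, the effect of the ADAR1 hairpin differed between the 4 lines for 11 members by the joint test. The edgeR adjusted p was 7.3e-05 for COL4A2, 0.00111 for COL1A1, 0.00332 for ITGB4, 0.00764 for COL6A3 and 0.0127 for LAMA3. It was 0.0211 for COL6A2, 0.0215 for ITGB5, 0.0223 for COL16A1, 0.0334 for ITGB8, 0.0361 for COL4A1 and 0.0366 for LAMB3. Without the block the edgeR adjusted p was 1.0 for each of the 11. The block includes MDAMB468, whose numbers were not read as pairs. For COL4A2 the block changes were 0.13 for BT549, 0.51 for MDAMB231 and 0.16 for MDAMB468, but -0.21 for HCC1806. COL6A2 rests on MDAMB468 libraries with next to no counts, and COL6A3 on levels under 0.11 RPKM in HCC1806.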

How the results depend on the processing

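Counts of called members moved most with the replicate block, from 0 to 5 in BT549, 0 to 5 in HCC1806, 0 to 14 in MDAMB231, 0 to 3 in MDAMB468, 1 to 10 on average and 0 to 11 for the difference between lines. The block called 354 of all 21352 genes in MDAMB468, and its shares of all genes for the other comparisons are given above. The 6 libraries of a line alone gave 3 in BT549 (all genes 226 of 16895) and 1 in MDAMB231 (all genes 117 of 16711). DESeq2 gave 1 in MDAMB231 (all genes 3.25%) and 3 on average (all genes 4.45%). Leaving out 1 library gave 0 to 1 in MDAMB231, 0 to 2 on average, 0 to 0 in the other lines and for the line difference, 69 to 71 for any line difference at baseline, 55 to 56 for the class difference and 325 to 340 over the 6 pairs. The shares of all genes in the fit of all 24 libraries are given with each comparison above. No other setting moved a count by over 1.5 times. Over the fits without 1 library, signs reversed for COL4A1 (-0.48 to 0.04) and COL4A2 (-0.37 to 0.04) in HCC1806 without HCC1806 shADAR1 replicate 3, for COL17A1 in MDAMB231 (-0.45 to 0.15) without shADAR1 replicate 2 (0.15) or shNT replicate 1 (0.12), for LAMB3 on average (-0.00 to 0.22) without HCC1806 shADAR1 replicate 2, and for the class difference of LAMA3 among shADAR1 groups (-0.01). The cause was not tested. Baseline comparisons have no block fit, because the block is nested in the line. Low counts limit members under 1 RPKM.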
